A study of Mus musculus with 2 samples.

Results

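The ciliated cells described here are the droplet barcodes of mouse lung that carried the RNA of motile cilia, with marker RNA of club and alveolar type 2 (AT2) cells below set limits. A barcode was taken when Foxj1, Ccdc153 and Tmem212 together reached at least 10 unique molecular identifiers (UMIs, counted RNA molecules) per 10000, with Scgb1a1, the main secretory product of club cells, below 1000 and Sftpc, the surfactant protein of AT2 cells, below 500. The rule found 213 of 3685 barcodes in the NAPH library and 190 of 3298 in the Control library, 403 of 6983 in all. Another 2 NAPH and 5 Control barcodes met the marker minimum and had Scgb1a1 at or above its limit, and they are added to the values at the end.

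Single lung cells of C57BL/6 mice were flow-purified on Epcam (a surface adhesion molecule of epithelium) and sequenced with a droplet 3' kit. There was 1 library labelled NAPH and 1 labelled Control. The labels do not spell out NAPH. The sources used here give no dose or route, no time of sampling, and no age, sex or number of mice behind each library.

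Motile ciliated cells of the airway each bear many cilia that beat together and move mucus out of the lung. Each cilium is built on a basal body and holds an axoneme, in which dynein motors slide paired microtubules against each other, and it is assembled and maintained by intraflagellar transport. A cell that becomes multiciliated first multiplies its centrioles under the factors Gemc1, Mcidas and Ccno, and then switches on the axoneme genes through Foxj1 and the RFX factors.

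Each group is a single library without a replicate, so no difference below has a test, and differences between mice, between sorts and between libraries cannot be told apart from an effect of the NAPH condition. UMIs were summed over the ciliated cells of a library and scaled to a common total (CPM). Ratios are NAPH over Control, divided by the median ratio of all genes, and their 95% intervals cover counting error only. CPM values count RNA molecules at their 3' ends, and fewer molecules per cell and fewer cells with the RNA cannot be told apart in a sum.

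Ciliated cells made up 5.78% of the NAPH barcodes (exact binomial 95% interval 5.05 to 6.58%) and 5.76% of the Control barcodes (4.99 to 6.61%), a ratio of 1.0 (0.821 to 1.23). In the NAPH library the 213 cells held 2082552 UMIs, with a median of 8286 per cell (range 3530 to 48016) and 3142 genes. In the Control library the 190 cells held 1136647 UMIs, with a median of 5328 per cell (range 4212 to 40466) and 2302 genes. The NAPH cells thus had the higher totals, and 111 of them exceeded 8000 UMIs, against 9 Control cells. The Control cells lay close to the smallest barcode of their library, which held 4212 UMIs. In the NAPH library, with its smallest barcode at 3514 UMIs, 8.92% of ciliated cells lay within 1.25 times of it, against 47.4% in the Control library. Of the other barcodes, 3.89% in the NAPH library and 5.31% in the Control library lay that near. How many ciliated cells fell below these minimums is not known, so the equal shares hold for the deposited barcodes only. Mitochondrial RNA took a median of 5.15% of UMIs in NAPH and 3.83% in Control ciliated cells. The libraries shared 14 barcodes, of which 1 was a ciliated cell, in the Control library.

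**Figure D1:**
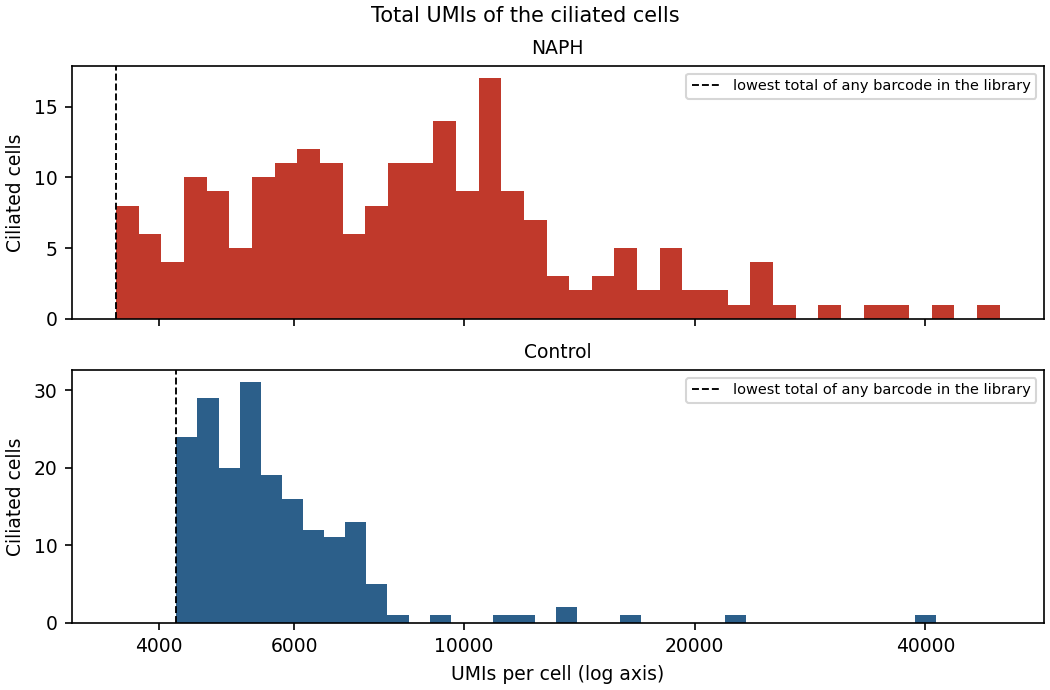
Number of ciliated cells (vertical axis) by total UMIs per cell (log axis) in the NAPH library (top) and the Control library (bottom), with a dashed line at the lowest total of any barcode in that library. The NAPH cells spread around a median of 8286 UMIs, while the Control cells, with a median of 5328, crowd against the lowest total of 4212.

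The marker sum left a gap at its minimum among barcodes that met both upper limits. There the lowest marker sum inside the rule was 10.6 per 10000 in NAPH and 12.1 in Control. The highest outside it was 3.47 in NAPH and 8.11 in Control. Among barcodes with Scgb1a1 of at least 1000 the gap was small. In these the highest sum below the minimum was 9.26 in NAPH and 9.40 in Control, and the lowest above it 11.1 and 10.3. The highest Scgb1a1 inside was 764 in NAPH and 906 in Control, and the lowest left out was 1299 in NAPH and 1296 in Control. The highest Sftpc inside was 434 in NAPH and 56.2 in Control, and the lowest left out was 729 in NAPH and 929 in Control. The 9 NAPH and 8 Control barcodes with the cilia markers and Sftpc of at least 500 were not used.

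**Figure D2:**
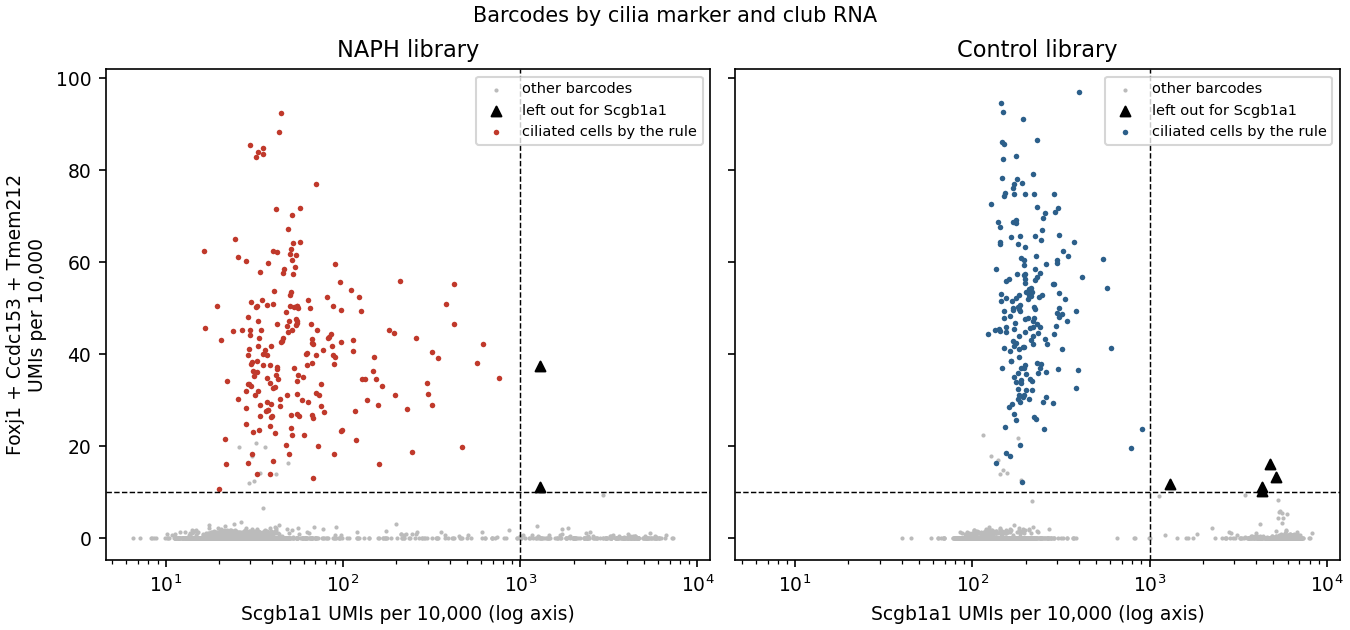
Summed UMIs of Foxj1, Ccdc153 and Tmem212 per 10000 (vertical axis) against Scgb1a1 per 10000 (log axis) for each barcode of the NAPH library (left) and the Control library (right). Coloured points are the 213 NAPH and 190 Control ciliated cells, triangles the 2 NAPH and 5 Control barcodes left out for Scgb1a1, and grey points at a marker sum above 10 are those left out for Sftpc.

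Scgb1a1 and Sftpc were present at a low level in every ciliated cell and in barcodes of other kinds. Scgb1a1 had a median of 50.5 per 10000 in NAPH (16.5 to 764) and 197 in Control ciliated cells (123 to 906). In barcodes with Sftpc of at least 500 its median was 25.2 in NAPH and 128 in Control, and in barcodes with immune RNA it was 25.6 in NAPH and 132 in Control. The level of Scgb1a1 in these other cells moved with that in the ciliated cells, and its share of ciliated-cell UMIs was 0.871% in NAPH and 2.40% in Control. Sftpc ran the other way, with a median of 54.0 in NAPH and 25 in Control ciliated cells, against 41.4 in NAPH and 19.8 in Control barcodes with immune RNA. Below, a gene is called within reach of free RNA, the RNA that drifts between droplets, when its level in ciliated cells was under 0.2 times that in one of these other groups of barcodes.

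The markers fitted the label of ciliated cells. In NAPH, Fam183b and Sntn, which the rule did not use, had 836 CPM and 400 CPM in ciliated cells, against 3.57 CPM and 1.34 CPM in barcodes with Sftpc of at least 500. In Control they had 1598 and 728 CPM in ciliated cells, against 3.62 and 2.21 CPM. Genes of other cell types were low next to these. The T and NK cell list (17 genes) summed to 4.32 CPM in NAPH and 1.76 in Control, with 10 genes in NAPH and 15 in Control at 0, and the neutrophil list (10 genes) to 9.60 CPM in NAPH and 1.76 in Control, with 4 genes in NAPH and 8 in Control at 0. The B cell list (10 genes) summed to 38.4 CPM in NAPH and 7.92 in Control, the endothelial list (12 genes) to 6.72 in NAPH and 5.28 in Control, and the fibroblast list (13 genes) to 17.3 in NAPH and 2.64 in Control. The basal list (13 genes), mostly Icam1, summed to 117 CPM in NAPH and 12.3 in Control, and the neuroendocrine, ionocyte and tuft lists to between 37.9 and 84.5 CPM in NAPH and between 29.9 and 49.3 in Control. The haemoglobin list was at 0 in both. Krt5, the defining basal keratin, had 3 UMIs in NAPH and 0 in Control.

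Some lists of other cells were not low. The club list (17 genes) summed to 24554 CPM in NAPH and 36147 in Control, with a range per cell of 41.2 to 1052 per 10000 in NAPH and 188 to 1062 in Control. The AT2 list (18 genes) summed to 10042 CPM in NAPH and 4153 in Control. Of its 17 genes with enough UMIs, 16 were at least 1.5 times higher in NAPH, against 12.6% of all genes. The goblet list (15 genes) summed to 1204 CPM in NAPH and 313 in Control, and the macrophage list (19 genes), led by Lyz2, to 1369 in NAPH and 775 in Control. The dendritic list (18 genes), led by Cd74, summed to 2150 CPM in NAPH and 1384 in Control. The alveolar type 1 list (14 genes) summed to 853 CPM in NAPH and 613 in Control, and the mesothelial list (8 genes), nearly all Krt19, to 475 in NAPH and 287 in Control. The part of this RNA in the differences below was not tested beyond leaving out cells with more of it.

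The promoters of 4 marker genes are shown, since the cells were chosen or checked by these genes and the factors that switch on cilia genes are known to bind short motifs. They are the 250 bases before the RefSeq gene start (GRCm38.p6, the assembly of mm10), read 5′ to 3′ on the gene's strand, with motif matches in capitals. The motifs searched, on both strands, were the X-box of RFX factors, its half-site GGCAAC, whose reverse complement is GTTGCC, and GTAAACA (a forkhead site). Ccdc153 lies at chr9:44240427-44240676 (plus strand), Fam183b at chr11:58801961-58802210 (minus), Sntn at chr14:13670626-13670875 (plus) and Tmem212 at chr3:27896369-27896618 (minus).
Ccdc153: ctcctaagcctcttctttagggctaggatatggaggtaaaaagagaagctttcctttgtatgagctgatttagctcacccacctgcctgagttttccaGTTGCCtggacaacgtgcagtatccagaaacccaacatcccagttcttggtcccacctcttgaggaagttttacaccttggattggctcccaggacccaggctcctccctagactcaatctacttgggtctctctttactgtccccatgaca
Fam183b: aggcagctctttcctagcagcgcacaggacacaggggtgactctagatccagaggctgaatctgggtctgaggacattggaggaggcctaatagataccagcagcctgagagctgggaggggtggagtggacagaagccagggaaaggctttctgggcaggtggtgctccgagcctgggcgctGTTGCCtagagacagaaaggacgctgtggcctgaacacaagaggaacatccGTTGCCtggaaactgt
Sntn: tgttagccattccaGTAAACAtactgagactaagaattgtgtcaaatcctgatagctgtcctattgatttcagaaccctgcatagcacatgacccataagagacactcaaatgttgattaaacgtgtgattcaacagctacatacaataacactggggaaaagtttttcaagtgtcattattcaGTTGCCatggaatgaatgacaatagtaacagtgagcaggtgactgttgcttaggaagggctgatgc
Tmem212: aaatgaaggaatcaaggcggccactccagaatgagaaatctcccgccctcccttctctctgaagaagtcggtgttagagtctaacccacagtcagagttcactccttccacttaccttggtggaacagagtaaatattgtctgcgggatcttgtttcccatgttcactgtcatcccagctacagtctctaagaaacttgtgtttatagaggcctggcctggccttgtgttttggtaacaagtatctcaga
Ccdc153 held the half-site with its first base at -152, Fam183b at -67 and -16, and Sntn at -66, with a forkhead match at -236. Tmem212 held none of these letters in this window.

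Of the 282 genes on the cilia lists, 229 had a promoter in the RefSeq table. The half-site was in 68 of them (29.7%), against 3195 of all 27025 promoters (11.8%). The full X-box was in 5 (2.18%), against 120 of all promoters (0.444%), and the forkhead site in 7 (3.06%), against 956 (3.54%). A match is a string of letters and not a measured binding site.

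Of 7363 genes with at least 50 UMIs in ciliated cells, 928 were at least 1.5 times higher in NAPH (12.6%), 537 at least 1.5 times lower (7.29%) and 5898 in between, so that 19.9% passed 1.5 times in either direction. The median log2 ratio of all genes before scaling was 0.06. Among the 157 genes within reach of free RNA, 73 were higher and 4 lower. For the lists, which take genes from 30 UMIs, the shares over all genes were 15.4% higher and 7.87% lower.

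Among the 5 marker genes, Foxj1, the master factor of motile cilia, had 1204 CPM in NAPH and 1123 CPM in Control, a ratio of 1.03 (0.959 to 1.10). Tmem212, a membrane protein gene, had 880 CPM in NAPH and 1116 CPM in Control (0.755), and Ccdc153, a coiled-coil protein gene, 1865 CPM in NAPH and 2705 CPM in Control (0.659). These 3 chose the cells, so their values are a description. Sntn, which encodes a protein of the tips of motile cilia, had 400 CPM in NAPH and 728 CPM in Control, a ratio of 0.525 (0.477 to 0.579). Fam183b, also known from ciliated cells, had 836 CPM in NAPH and 1598 CPM in Control, a ratio of 0.50 (0.468 to 0.535). Each cell thinned at random to 3500 UMIs showed the same order. Fam183b then had a median of 3 UMIs per NAPH cell (quartiles 1 and 5) and 5 per Control cell (3 and 8). Sntn had 1 in NAPH (0 and 2) and 3 in Control (1 and 4), while Foxj1 had 4 in both. Foxj1, itself a gene of the rule, stood level in the libraries beside lower RNA of Fam183b and Sntn in NAPH.

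The 12 highest and 12 lowest genes are named by a rule on level and ratio. It passes over genes within reach of free RNA, markers of other cells and unnamed predicted genes. Of the 12 highest, 1 (Ccno) is on a cilia list, and Arl13b and Fam183b among the 12 lowest are on such lists too. Cilia-list genes were 250 of the 8922 genes with at least 30 UMIs, so the 12 highest do not show a lack of them. Cd177, a cell surface glycoprotein known from neutrophils, had 440 UMIs in NAPH and 11 in Control (211 CPM in NAPH, 9.68 in Control), a ratio of 20.9 (11.6 to 42.2). The defining neutrophil markers were near 0, with S100a8, the most abundant, at 2.40 CPM in NAPH and 0.880 CPM in Control, and Cd177 itself was at 0.956 CPM in NAPH barcodes with immune RNA and at 0 in those of Control. S100a6, a calcium-binding protein, had 6675 CPM in NAPH and 825 CPM in Control, a ratio of 7.74 (7.24 to 8.28), which placed it among the 15 most abundant genes of these cells. After thinning it had a median of 13 UMIs per NAPH cell (4 to 32) and 0 per Control cell (0 to 2), so most NAPH cells lay above most Control cells, with overlap. In other barcodes S100a6 was lower: 134 CPM in NAPH and 182 CPM in Control with Sftpc of at least 500, 538 CPM in NAPH and 182 CPM in Control with Scgb1a1 of at least 1000, and 1084 CPM in NAPH and 751 CPM in Control with immune RNA.

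Clu, a secreted chaperone, had 391.8 CPM in NAPH and 45.7 CPM in Control, a ratio of 8.20 (6.19 to 11.1). It was also higher in NAPH in barcodes with Scgb1a1 of at least 1000, at 837 CPM, against 171 CPM in Control. Areg, a ligand of the EGF receptor, had 461 CPM in NAPH and 66.0 CPM in Control (6.68, 5.28 to 8.57). Ghrl, the precursor of the peptide hormone ghrelin, had 572 CPM in NAPH and 99.4 CPM in Control (5.50, 4.54 to 6.74), and it stayed at or under 6.54 CPM in the other groups of barcodes. The cells carried it unevenly, with a median of 1 thinned UMI in NAPH (0 to 3, highest 46) and 0 in Control (highest 4).

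The remaining high genes had ratios between 3.28 and 4.14. They were Cox6b2, a form of a cytochrome oxidase subunit known from testis (179 CPM in NAPH, 41.3 CPM in Control), the metalloprotease Adam8 (161 CPM in NAPH, 38.7 in Control), the gamma-synuclein gene Sncg (267 CPM in NAPH, 66.9 in Control), the copper oxidase gene Cp (254 CPM in NAPH, 67.7 in Control), Ccno, the small GTPase Arl4c (133 CPM in NAPH, 38.7 in Control) and the annexin Anxa3 (166 CPM in NAPH, 48.4 in Control). Sncg was under 1 CPM in each other group of barcodes. The high value of Ccno, and part of that of Cox6b2, rested on few cells, described below with the genes of centriole amplification.

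The gene with the lowest ratio was Lat, an adaptor protein known from T cell receptor signalling, with 39.9 CPM in NAPH and 152 CPM in Control, 0.251 (0.190 to 0.327). The T cell list beside it was near 0, as given above. Pcp4l1, which encodes a small protein of the Purkinje cell protein family, had 335 CPM in NAPH and 1098 CPM in Control, 0.292 (0.266 to 0.321). After thinning its median was 0 UMIs per NAPH cell (0 to 2) and 4 per Control cell. Chchd10, a protein of the mitochondrial intermembrane space, had 2641 CPM in NAPH and 5683 CPM in Control, 0.445 (0.429 to 0.461). It was detected in nearly all cells, with a thinned median of 9 UMIs in NAPH (7 to 13) and 20 in Control (15 to 25), so the middle ranges of the libraries did not overlap.

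Cdkn1c, the cell cycle inhibitor p57, had 116 CPM in NAPH and 304 CPM in Control, 0.365 (0.308 to 0.431). Kcnq1ot1, the long noncoding RNA of the same imprinted domain, had 169 CPM in NAPH and 409 CPM in Control, 0.394 (0.342 to 0.454). In mm10, Cdkn1c lies at chr7:143458339-143461050 and Kcnq1ot1 at chr7:143203458-143296549, where it runs antisense to Kcnq1, and the sources used here do not say whether counting used strand. Among cells of like depth, from 4212 to 8000 UMIs, the ratio of Kcnq1ot1 was nearer to 1, at -0.62 on the log2 scale instead of -1.34. That of Cdkn1c was at -1.05 instead of -1.45.

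The other low genes were Sult1d1, a sulfotransferase (0.332), Tstd1 (0.382), Prpf4b, a kinase of the splicing machinery (0.447), Hs3st6, a heparan sulfate sulfotransferase (0.476), Arl13b, a GTPase of the ciliary membrane (0.490), Fam183b and Lsm10, a component of the U7 small nuclear ribonucleoprotein (0.511). Apart from Fam183b, these had from 36.0 to 67.7 CPM in NAPH and from 100.3 to 170 CPM in Control.

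**Figure D3:**
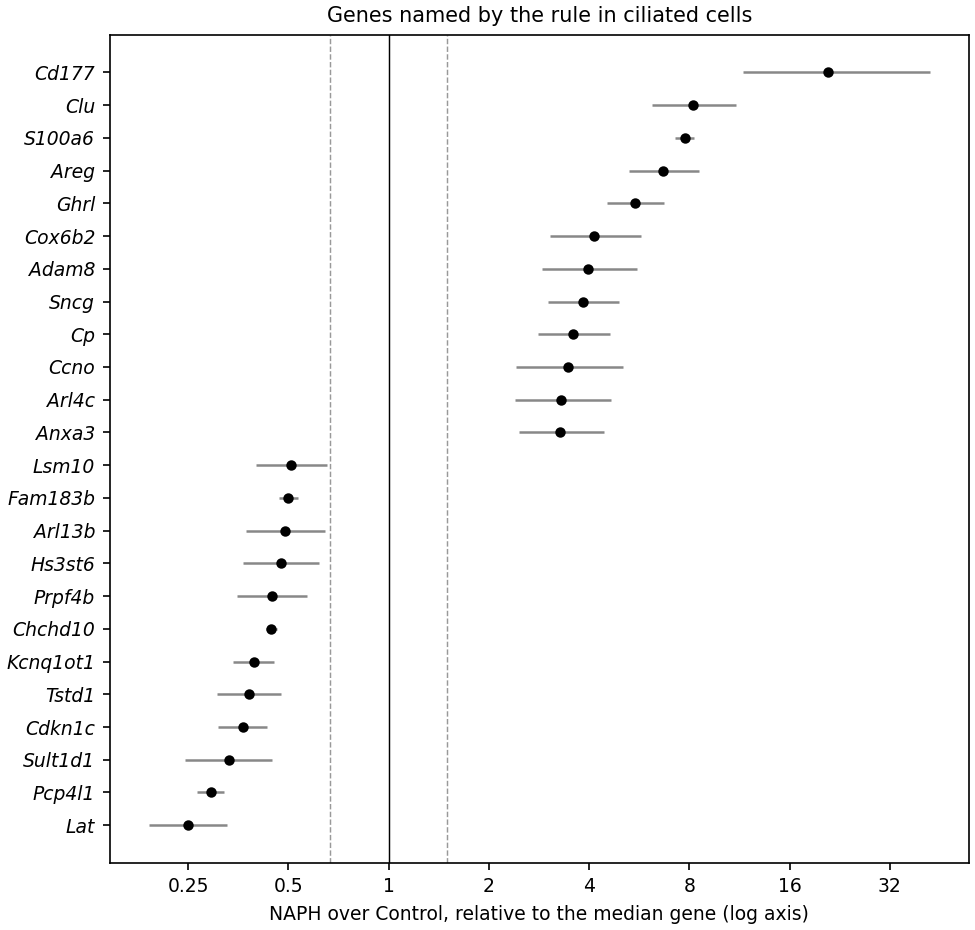
Ratio of CPM, NAPH over Control, relative to the median gene (log axis) for the 12 highest and 12 lowest genes in ciliated cells, with 95% counting intervals as grey lines and dashed lines at 1.5 times in each direction. The ratios run from 20.9 for Cd177 down to 0.251 for Lat, and that of Ccno, and in part that of Cox6b2, rests on few cells.

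**Figure D4:**
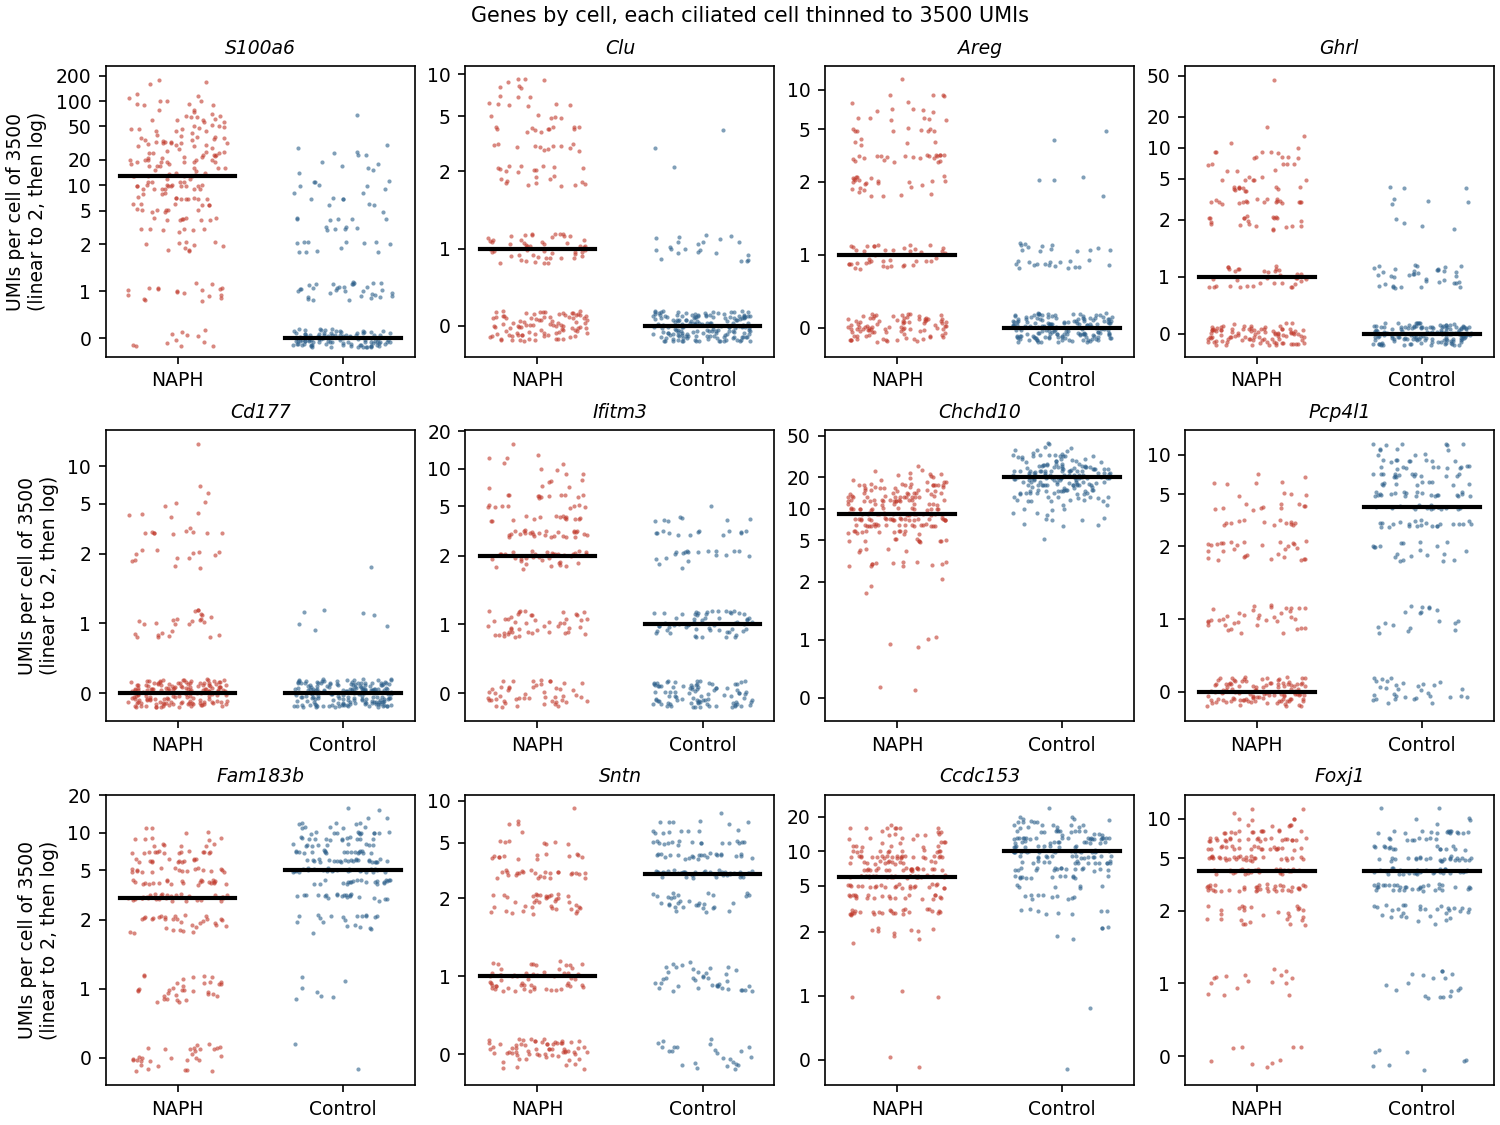
UMIs per ciliated cell after thinning each cell to 3500 UMIs (linear to 2, then log) for 12 genes, with 1 point per cell, spread sideways and slightly up and down for sight, and a black line at the median. S100a6 has a median of 13 in NAPH and 0 in Control, Chchd10 9 in NAPH and 20 in Control, and Foxj1 4 in both.

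The most abundant genes were Malat1, a nuclear noncoding RNA (24910 CPM in NAPH, 25425 CPM in Control), the ferritin genes Fth1 (8025 CPM in NAPH, 8819 in Control) and Ftl1 (5895 CPM in NAPH, 5851 in Control), and Cbr2, a carbonyl reductase (6506 CPM in NAPH, 6862 in Control). Among them, Wfdc2, a secreted protease inhibitor, was higher in NAPH at 5289 CPM, against 2511 CPM in Control (2.02). Mt1, a metallothionein, had 5408 CPM in NAPH and 3571 CPM in Control (1.45). Tppp3, a protein that bundles microtubules, was lower at 4346 CPM in NAPH, against 6972 CPM in Control (0.596), and so was Ptma, at 3642 CPM in NAPH and 6131 CPM in Control (0.568). Dynll1, a dynein light chain (0.753), and Cd24a (0.794) were below the median gene by less than 1.5 times.

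Taken over all cilia lists, 250 of the 282 genes had at least 30 UMIs. Among them were Foxj1, Ccdc153 and Tmem212, which chose the cells and are left out of the counts that follow. Of the remaining 247, 18 were at least 1.5 times higher in NAPH and 26 lower. Their median log2 ratio was -0.15, against 0.02 for all genes at that minimum, with 84 above the median gene and 163 below it. RNA of all 282, the 3 included, made up 5.65% of ciliated-cell UMIs in NAPH and 6.5% in Control. In thinned cells a sum of cilia genes had a median of 191 UMIs in NAPH (167 to 217) and 223 in Control (208 to 241). That sum did not count Ccno, Ccdc67, Cdc20b, Mcidas, Plk4, Tuba1b, Tuba1c, Tubb5, Tubb6 and Stmn1. Foxj1, Ccdc153 and Tmem212 were in it. The 26 lower of 247 stand beside 7.87% over all genes, and the 18 higher beside 15.4%.

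Regulators of multiciliogenesis other than Foxj1 had a median of -0.12, with 2 of 10 higher and 1 lower. Trp73, a transcription factor that acts upstream of Foxj1, had 53.8 CPM in NAPH and 80.1 CPM in Control, 0.643 (0.483 to 0.857). Rfx2, an RFX factor, was at 1.42 and Rfx3 at 1.23, Myb at 0.849, and E2f4, a partner of Mcidas, at 1.0. Ccno, a cyclin-like protein needed for centriole amplification, had 231 UMIs in NAPH and 35 in Control (111 CPM in NAPH, 30.8 in Control), 3.45 (2.41 to 5.07). Mcidas, the switch for that step, had 28 UMIs in NAPH and 9 in Control, 1.62 (0.745 to 3.91), an interval that holds 1.

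Among centriole amplification genes (median -0.07), 3 of 15 were higher and 1 lower. Plk4, the kinase that starts a new centriole, had 47 UMIs in NAPH and 11 in Control (2.23), and Ccdc67, also called Deup1, the core of the deuterosome that mass-produces centrioles, had 191 in NAPH and 51 in Control (1.96). Poc1a, a centriole protein, had 88 in NAPH and 26 in Control (1.77). Cep164, which marks the appendages of finished basal bodies, was lower, with 158 CPM in NAPH and 233 CPM in Control (0.650).

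These transcripts sat in few cells. A cell with Ccno, Ccdc67, Cdc20b, Mcidas and Plk4 summing to at least 5 per 10000, a threshold chosen after the values were seen, was found 7 times among the 213 NAPH cells (3.29%, 1.33 to 6.65%) and 2 times among the 190 Control cells (1.05%, 0.128 to 3.75%). The intervals overlap, and 10 NAPH and 5 Control cells lay near the threshold, between 3 and 7 per 10000. The 7 NAPH cells held 206 of the 231 Ccno UMIs and all 28 Mcidas UMIs, and the 2 Control cells held 20 of the 35 Ccno UMIs and all 9 Mcidas UMIs. Without them Ccno stood at 13.4 CPM in NAPH and 13.5 CPM in Control. They were large, with a median of 29250 UMIs in NAPH and 13799 in Control, against 8166 in the other NAPH and 5319 in the other Control ciliated cells. A doublet caller marked 0 of the 7 NAPH and 0 of the 2 Control cells. Foxj1 in the 7 NAPH cells was 1191 CPM, against 1206 CPM in the other NAPH ciliated cells, while Sntn was 23.5 CPM, against 443 CPM. They also held 85 of the 98 UMIs of the cell cycle kinase gene Cdk1 but 2 UMIs of Mki67, a marker of dividing cells. Cox6b2 was at 1017 CPM in the 7 NAPH cells and at 84.0 CPM in the other NAPH cells. In Control cells other than the 2 it was at 37.9 CPM. Ghrl was at 18.8 CPM in the 7 NAPH cells and at 635 CPM in the other NAPH cells.

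The axoneme lists lay below the median gene. Outer dynein arm genes had a median of -0.28, with 1 of 11 lower, Dnal4, a light chain (134 CPM in NAPH, 210 CPM in Control, 0.612). Dynlrb2, another dynein light chain and the most abundant of the list, had 2041 CPM in NAPH and 2632 CPM in Control (0.742), and the heavy chain gene Dnah9 had 149 CPM in NAPH and 165 CPM in Control (0.864). Inner arm and nexin-dynein genes had a median of -0.26 with 1 of 22 lower, Iqcd (0.577), and Dnah12 at 0.709 and Dnah1 at 1.22 in between. The radial spoke list (-0.15) had 1 of 15 lower, Wdr66 (0.664), and Rsph1, a spoke head protein gene, at 735 CPM in NAPH and 998 CPM in Control (0.705). None of the 15 central pair genes (-0.13) passed 1.5 times, with Hydin at 0.696 and Spag16 at 1.14. Of 17 dynein arm assembly factors (-0.03), Ruvbl1 (1.70) and Wdr92 (1.53) were higher.

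The lowest median of the 13 cilia lists was that of the proteins inside the microtubule doublets, at -0.38, with 7 of 22 lower and 1 higher. The tektins Tekt2 (0.603) and Tekt4 (0.627), the filaments that line the doublet, were among the lower genes, as were Cfap20 (295 CPM in NAPH, 483 CPM in Control, 0.584), Cfap161 (205 CPM in NAPH, 331 in Control, 0.592), Mns1 (0.614) and the gene 1700007K13Rik (686 CPM in NAPH, 1134 in Control, 0.579). Cfap52 was higher, at 151 CPM in NAPH and 95.9 CPM in Control (1.5, 1.21 to 1.89). This list had a median of -0.44 when only cells of 4212 to 8000 UMIs were used, in which the outer arm, inner arm, radial spoke and central pair lists moved to 0.05, 0.10, 0.03 and 0.20. In those cells of like depth the medians of these 4 lists were thus not below the median gene.

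Tubulins and their modifiers had a median of -0.09 over all members and of 0.21 in cells of 4212 to 8000 UMIs, with 1 of 22 lower, Tppp3, and 2 higher on few UMIs, Hdac6, a tubulin deacetylase (41 in NAPH, 4 in Control, 5.35), and Tubb6 (41 in NAPH, 5 in Control, 4.28). The main ciliary tubulin gene Tubb4b was at 1733 CPM in NAPH and 1516 CPM in Control (1.09). Intraflagellar transport genes had a median of -0.11, with 2 of 30 lower, Wdr60 (0.588), a chain of the dynein that returns cargo to the cell body, and Ift27 (0.658), and 1 higher, Ttc30a1 (48 UMIs in NAPH, 15 in Control, 1.67). The BBSome and transition zone list, the gate at the base of the cilium and its cargo adaptor, had a median of -0.25 with 6 of 29 lower and 1 higher. Arl13b (51.4 CPM in NAPH, 100.3 CPM in Control, 0.490), Lca5 (0.569) and Cep290 (110 CPM in NAPH, 168 in Control, 0.626), a scaffold of the transition zone, were the lowest, and Tctn1 (53 UMIs in NAPH, 17 in Control, 1.63) the highest.

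Other genes known from ciliated cells, without Ccdc153 and Tmem212, had a median of -0.13, with 5 of 27 lower, including the markers Fam183b and Sntn as well as Lrriq1 (0.548), and 3 higher. The highest was AU040972, with 1660 CPM in NAPH and 607 CPM in Control (2.62, 2.41 to 2.84), and the cadherin-related gene Cdhr4 had 353 CPM in NAPH and 208 CPM in Control (1.63). Planar cell polarity genes, which align the cilia of a sheet, had a median of 0.17 with 3 of 12 higher on low counts: Vangl1 (129 UMIs in NAPH, 39 in Control, 1.73), Celsr2 (38 in NAPH, 10 in Control, 1.98) and Dvl1 (44 in NAPH, 15 in Control, 1.53). Of 14 kinases that buffer ATP (-0.05), the creatine kinase Ckb, with 443 CPM in NAPH and 235 CPM in Control (1.80), and Nme2 (38 UMIs in NAPH, 6 in Control, 3.31) were higher.

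**Figure D5:**
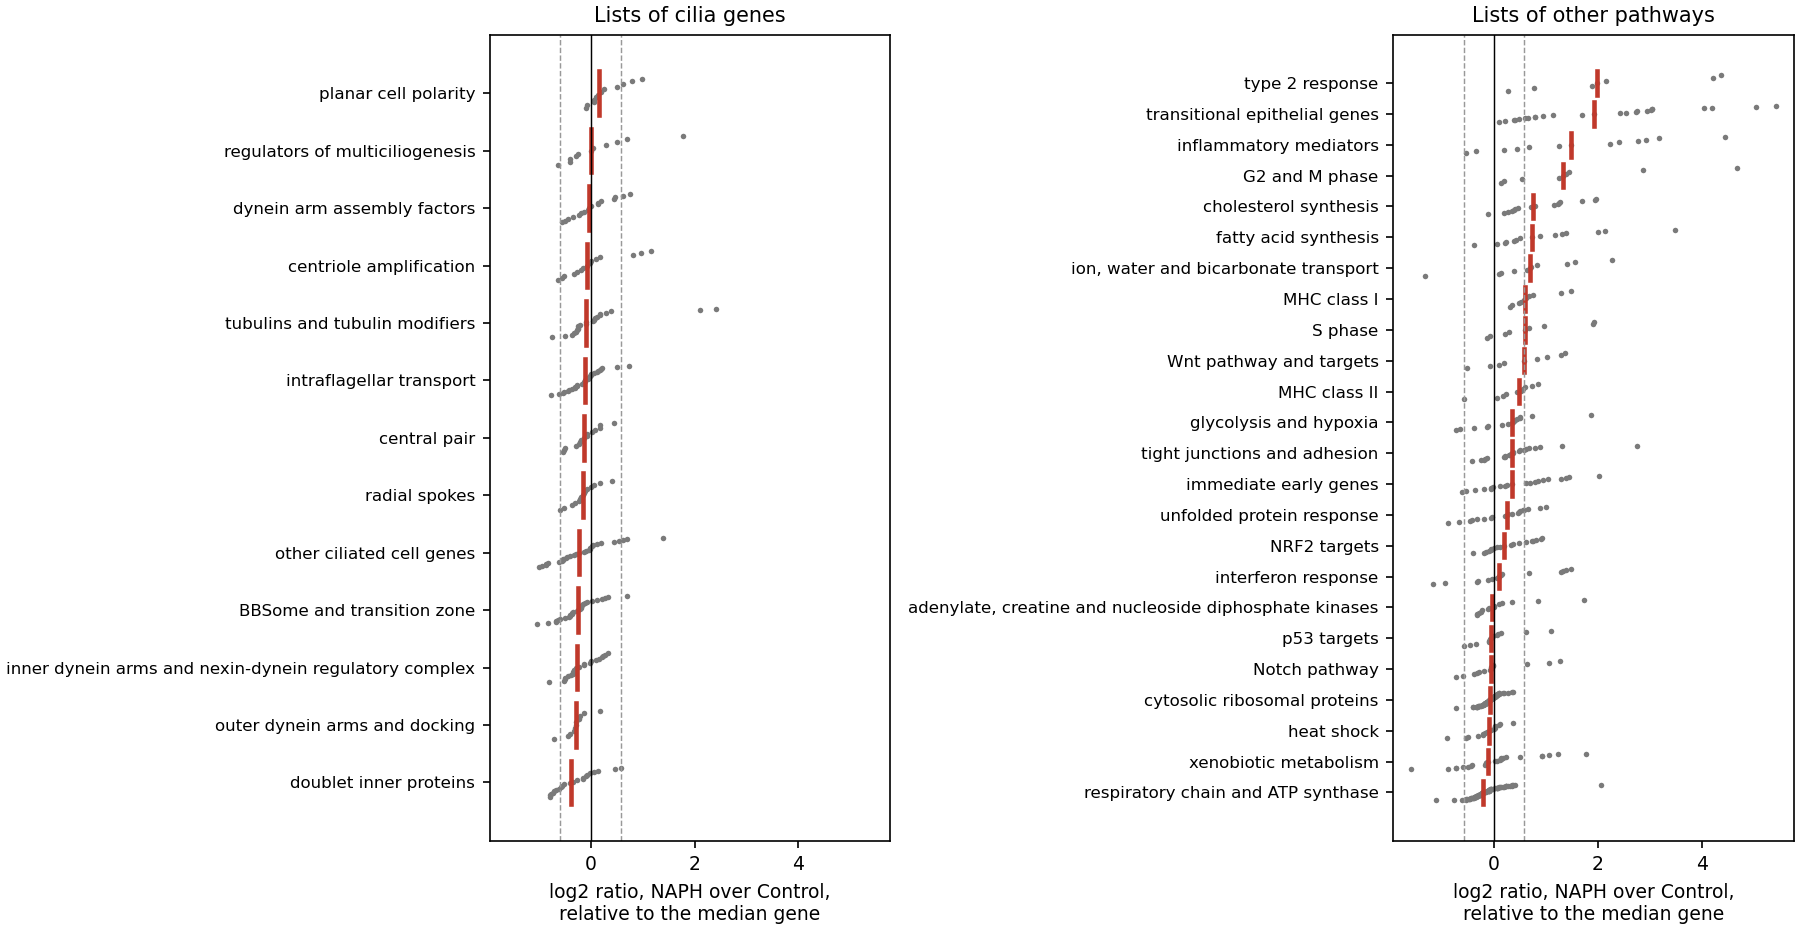
Log2 ratio, NAPH over Control, relative to the median gene, for each gene with at least 30 UMIs of the 13 cilia lists (left) and 24 other lists (right), as grey points with the list median, the 3 genes of the rule included, as a red bar and dashed lines at 1.5 times. The cilia list medians lie between -0.38 and 0.17, while type 2 response and transitional epithelial genes lie near 2, the type 2 list with 5 of 7 genes within reach of free RNA.

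Genes of the transitional epithelial state, known from injured lung epithelium, stood highest among the lists with little reach of free RNA. Of 25 genes used, 20 were at least 1.5 times higher in NAPH and 0 lower, with a median log2 ratio of 1.93, against 15.4% of all genes higher. That median was 0.89 after thinning, when fewer genes reached the minimum, and 1.01 in cells of 4212 to 8000 UMIs. Krt8, a keratin used as a marker of that state, was at 1.39, Krt18 at 2.2, Krt7 at 1.92, the galectin gene Lgals3 at 3.23 and Cldn4, a tight junction claudin, at 6.74 (129 UMIs in NAPH, 10 in Control). The EGF receptor ligand Hbegf had 82 UMIs in NAPH and 1 in Control, Cyr61 had 63 in NAPH and 1 in Control, the urokinase receptor gene Plaur 35 in NAPH and 1 in Control, and Emp1 was at 16.5. Msln had 47 UMIs in NAPH and 0 in Control and was within reach of free RNA. The summed thinned list had a median of 54 UMIs per NAPH cell (37 to 84, range 12 to 239) and 26.5 per Control cell (20 to 32.8, range 9 to 197). Within NAPH cells Spearman's rho of this sum with that of the cilia genes was -0.24 over 213 cells. In Control cells rho was -0.02 over 190 cells. Each value is a description of cells of 1 library at equal depth. The cilia sum held Foxj1, Ccdc153 and Tmem212, which chose the cells, and left out Ccno and the genes named with it above. Both sums were parts of the same fixed number of UMIs per cell, so a rise in either left less room for the other. The values therefore cannot tell whether cells with more transitional RNA had less cilia RNA for another reason.

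Antigen presentation and interferon genes were mixed. Of 10 MHC class I genes (0.60), 5 were higher and 0 lower, led by H2-T23 (43 UMIs in NAPH, 8 in Control, 2.81) and H2-K1, a classical class I heavy chain (320 CPM in NAPH, 126 CPM in Control, 2.44). H2 genes have near copies, and the sources used here do not say how reads were split among them. Of 16 interferon genes (0.09), 5 were higher, among them Ifitm3 (727 CPM in NAPH, 248 CPM in Control, 2.80), Lgals3bp (2.60) and Bst2 (2.50), while Usp18 (0.522) and Xaf1 (0.445) were lower. MHC class II had 3 of 10 higher (0.48, and 1.90 in cells of 4212 to 8000 UMIs), but 9 of its genes were within reach of free RNA. Of 13 inflammatory genes (1.48), 9 were higher and 7 within reach. Beyond that reach were Icam1, a leukocyte adhesion molecule (160 UMIs in NAPH, 11 in Control, 7.60), Ptgs2, the inducible cyclooxygenase (52 UMIs in NAPH, 3 in Control, 9.05), and the chemokine gene Cxcl17 (2.38). Lrg1 (21.9) and Lcn2 (6.82) were within reach. The type 2 response list (1.99, 6 of 7 higher) had 5 genes within reach, among them Chil3 and Retnla.

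Of 21 immediate early genes (0.35), 10 were higher and 1 lower, with Atf3 (31 UMIs in NAPH, 4 in Control, 4.05), Fos (182 CPM in NAPH, 64.2 CPM in Control, 2.72) and Egr1 (2.43) high and Maff (0.649) low. Heat shock genes were level (-0.11), with Hspe1, a mitochondrial chaperonin, lower (268 CPM in NAPH, 480 CPM in Control, 0.534). In the unfolded protein response list (0.25), 3 of 20 were higher, led by Sdf2l1 (2.0), and 2 lower, Atf4 (0.624) and Ddit3 (0.540). Of 14 p53 targets (-0.06), Phlda3 (182 CPM in NAPH, 80.9 in Control, 2.15) and Perp (1.53) were higher.

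The xenobiotic metabolism list, which holds the enzymes that process foreign compounds, had a median of -0.11 (0.22 in cells of 4212 to 8000 UMIs), with 5 of 29 higher and 5 lower. Cyp2f2, a cytochrome P450 of club cells, had 1608 CPM in NAPH and 1405 CPM in Control (1.10), Gsto1, a glutathione transferase, 992 CPM in NAPH and 454 CPM in Control (2.09), and Aldh1a7 was at 2.34, while Sult1d1 was at 0.332 and Gstm1 at 0.604. Of 19 NRF2 targets (0.19), 6 were higher and 0 lower, including Gclc, the catalytic subunit for glutathione synthesis (234 CPM in NAPH, 120 CPM in Control, 1.87), while its partner Gclm was at 0.895.

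Lipid and transport genes were higher at the median. Of 16 cholesterol synthesis genes (0.75), 9 were higher and 0 lower, among them Hmgcs1 (2.34) and Nsdhl (30 UMIs in NAPH, 4 in Control, 3.92). Of these 16, 3 were within reach of free RNA, and the median without them was 0.72. Of 15 fatty acid synthesis genes (0.73), 8 were higher, with Thrsp at 3.98 (61 UMIs in NAPH, 8 in Control) and Scd1, within reach of free RNA, at 11.3. Of these 15, 6 were within reach of free RNA, and the median without them was 0.49. Of 11 ion and water transport genes (0.69), 7 were higher, with the water channel Aqp5 at 4.80 (239 UMIs in NAPH, 26 in Control), the sodium pump subunit Atp1b1 at 552 CPM in NAPH and 199 CPM in Control (2.66) and the chloride cotransporter gene Slc12a2 at 2.94, and 1 lower, the carbonic anhydrase Car2 (26 UMIs in NAPH, 34 in Control, 0.399). Tight junction genes (0.35) had 6 of 23 higher, including Dsg2 (2.46). Glycolysis and hypoxia genes (0.35) had 2 of 16 higher, Ldha (1.65) and Hk2 (35 UMIs in NAPH, 5 in Control), and 2 lower, Bnip3 (0.634) and Ankrd37 (0.600).

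Among Notch genes (-0.07), Hes6, a factor known to oppose Notch effectors, was higher (589 CPM in NAPH, 234 CPM in Control, 2.41), and the receptors Notch1 (0.658) and Notch2 (0.605) were lower on few UMIs. Of 9 Wnt genes (0.58), 4 were higher, including the ligand Wnt7b (109 UMIs in NAPH, 22 in Control, 2.59) and Ccnd1, cyclin D1 (254 CPM in NAPH, 99.4 CPM in Control, 2.45). S phase genes (0.59) had 5 of 9 higher and G2 and M phase genes (1.34) 6 of 9, all on low counts. Top2a had 58 UMIs in NAPH and 12 in Control, and Mki67 had 12 in NAPH and 7 in Control. Of these UMIs, the 7 NAPH cells of centriole amplification held 34 of Top2a and 2 of Mki67, and the 2 Control cells held 5 and 0. The 7 NAPH cells also held most of the NAPH UMIs of Cdk1, as given above. Without the cells of centriole amplification the S phase median was 0.24. Ribosomal protein genes (-0.08) had 0 of 81 higher and 1 lower, and respiratory chain genes (-0.21) 1 higher, Cox6b2, and 3 of 81 lower, among them Ndufb10 (198 CPM in NAPH, 325 CPM in Control, 0.583).

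Cells within a library varied beyond counting in several abundant genes. After thinning, the Fano factor (variance over mean, 1 for pure counting) was 60.3 in NAPH and 19.3 in Control for Malat1, 39.3 in NAPH and 18.2 in Control for S100a6, and 44.5 in NAPH and 15.1 in Control for Scgb1a1. For Scgb3a2, a secretoglobin of club cells within reach of free RNA, it was 55.6 in NAPH and 1.10 in Control, with a median of 1 UMI per cell in both and a highest of 129 in NAPH and 6 in Control. Mt1 had 23.6 in NAPH and 6.88 in Control, Cd74 15.3 in NAPH and 23.8 in Control, Tmsb4x 11.5 in NAPH and 13.8 in Control, and the mitochondrial genes mt-Co1, mt-Atp6 and mt-Co3 lay between 13.6 and 22.7 in NAPH and between 9.18 and 11.7 in Control.

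The 7 barcodes with Scgb1a1 of at least 1000 were mostly large. The 2 NAPH barcodes had 44207 and 4804 UMIs, Scgb1a1 of 1301 and 1299 per 10000 and marker sums of 11.1 and 37.5. The 5 Control barcodes had between 15213 and 41972 UMIs, Scgb1a1 between 1296 and 5155 and marker sums between 10.3 and 16.2, below the first quartile of 38.5 per 10000 in the Control ciliated cells. A doublet caller removed 1 of the NAPH and 4 of the Control barcodes. With them added, the shares were 5.83% in NAPH (215 barcodes) and 5.91% in Control (195 barcodes), a ratio of 0.987.

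Scgb1a1 with them had 11495 CPM in NAPH and 71907 CPM in Control, a ratio of 0.146 instead of 0.348. Scgb3a2 had 1795 CPM in NAPH and 1014 CPM in Control with them, a ratio of 1.61, against 1569 CPM in NAPH and 267 CPM in Control and a ratio of 5.63 without them. In cells of 4212 to 8000 UMIs the log2 ratio of Scgb3a2 was 0.26, against 2.49 over all members. Cyp2f2 had a ratio of 0.851 with them and 1.10 without. The median log2 ratio of all genes was 0.13 with them, and of 7500 genes compared 891 were at least 1.5 times higher and 539 lower. Of the 24 genes with the highest and lowest ratios, Ccno moved most, to 2.59, followed by Cp, at 2.70, Clu, at 6.75, and Cox6b2, at 3.55, while S100a6 was at 8.05, Fam183b at 0.511 and Pcp4l1 at 0.303. The G2 and M phase median was 0.79 with them. Cyr61, with 1 Control UMI, had a log2 ratio of 4.14 with them and 5.04 without.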

How the data were processed

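RNA of single Epcam-sorted lung cells was measured in 1 NAPH and 1 Control library. The deposited files hold raw counts of UMIs for each gene in each barcode, which the authors made with Cell Ranger on mm10, per the submitters' processing notes. Its version, and how barcodes were called as cells, are not stated in the sources used here. The libraries held 38497783 UMIs in 3685 barcodes (NAPH) and 41699755 UMIs in 3298 barcodes (Control). Of 28692 gene IDs, 28416 were found in GENCODE vM21, and 58 symbols occurred more than once.

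Members were found by the rule in the opening on all deposited barcodes, and counts were summed per library, scaled to CPM and compared as ratios with exact conditional Poisson intervals (Python 3.11.15, scipy 1.17.1), divided by the median ratio of genes with at least 50 UMIs. Called means at least 1.5 times. Lists used genes with at least 30 UMIs. Shares have exact binomial intervals. Free RNA was taken to reach a gene if its level in members, read in the library with the higher level, was below 0.2 times that in barcodes with Sftpc of at least 500, with Scgb1a1 of at least 1000, or with immune RNA of at least 20 per 10000. Thinned values draw 3500 UMIs per cell, and 0 members were shallower. Intervals cover counting error only, and the ratio step was tested on simulated data.

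Named genes are the 5 markers, the 15 highest levels, the 12 highest and 12 lowest ratios (at least 100 CPM in a library and a UMI in 10% of its cells), up to 3 highest and lowest members of each list, the 10 highest Fano factors and 7 fixed genes. Some genes that this rule names are left out here. The members, lists and rules were chosen with earlier results of these data known. Doublets were scored with Scrublet (scanpy 1.11.5). Its automatic threshold called 0.0815% of NAPH and 0.243% of Control barcodes and had therefore not worked, so 109 NAPH and 87 Control barcodes were removed at the expected rate in an alternative that kept 198 of the 213 NAPH and 187 of the 190 Control members. Other alternatives changed the limits of the rule, the depth, the scaling (plain CPM, edgeR 4.0.16 TMM in R 4.3.3, equal weight per cell) and the UMI minimum. Promoters came from RefSeq.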

Additional observations from a re-analysis of the deposited data

How the results depend on the processing

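No paired analysis was possible because each group has 1 library. Counts of genes depended on the UMI minimum, which sets how many genes are compared. At least 10 UMIs gave 2092 genes higher and 1353 lower in NAPH, of 11420 compared. With 1 UMI in each library there were 2488 and 2033 of 13055, and with at least 200 UMIs 267 and 119 of 2750. Cells thinned to 3500 UMIs gave 615 and 327 of 4454, against 928 and 537 of 7363. Under all other settings tried, there were 715 to 1081 genes higher and 414 to 609 lower, and the ratio of shares was 0.952 to 1.02. The median log2 ratio of all genes was -0.02 with at least 200 UMIs, 0.01 after thinning and 0.06 to 0.13 otherwise. Plain CPM gave 1081 higher and 414 lower of 7363. A limit of 100 on Scgb1a1 gave no value, since 0 Control members passed it, against 178 in NAPH. Leaving out members with Scgb1a1 of at least 500 or Sftpc of at least 100 gave 906 higher and 580 lower of 7245.

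The following 3 settings were chosen after seeing the data: totals of 4212 to 8000 UMIs (85 NAPH and 181 Control members), centriole amplification cells left out, and less club RNA. At totals of 4212 to 8000 UMIs the log2 ratio was -0.028 for G6pdx, -0.25 for Plk4, -0.35 for Cox6b2, -0.39 for Poc1a and -0.028 for Ccno, which were all higher in NAPH over all members. Without centriole amplification cells Ccno was at -0.070. Chil3 was at -0.57 with doublets removed and at -0.63 without cells of immune RNA, and Ddit3 at 0.21 after thinning. The cause was not tested for Chil3, Ddit3 or G6pdx. Genes near 1.5 times crossed it often: of 14 settings, Wdr66 no longer passed it in 10, Wdr92 in 9, Notch1 in 8, Ccdc153 and Atf4 in 7, Ift27, Ifi30 and Ddit3 in 6 and Poc1a in 5. Among the list medians that crossed 0 under a setting were those of p53 targets (0.18 at those totals), interferon response (-0.04 without centriole amplification cells), centriole amplification (0.03 at most), dynein arm assembly factors (0.06 after thinning) and the ATP-buffering kinases (0.07 with less club RNA).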
